A study of Homo sapiens with 20 samples.

Results

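The regions described here are the summits on chromosomes 4, 5, 15 and 16 in 12 chromatin immunoprecipitation sequencing (ChIP-seq) lists, 12455 of 87308 summits in all. A summit is the single base at which a called peak is highest. The 4 chromosomes were chosen by a measured value, the share of a library's summits that fell on them in knockout and wild-type cells, so the difference between the genotypes is given as a description without a test. Shares were taken over the 86985 summits on chromosomes 1 to 22 and X.

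MYC is a transcription factor that pairs with MAX and binds the E-box CACGTG, mostly at promoters that are already active, and it is known for driving genes of ribosome assembly and nucleotide synthesis. RNA polymerase II transcribes the protein-coding genes and often dwells just downstream of their start sites, so its peaks mark used promoters as well as the bodies of heavily transcribed genes. A peak caller tests each place against the local signal, so the number of peaks follows depth and signal quality as well as occupancy.

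PC-3, an established prostate cancer epithelial cell line, was studied as wild type (WT) and as as PSD10, a line with a knockout of SLK, the gene of STE20-like kinase (SLK-KO). Each genotype had 3 libraries with an antibody against c-Myc (MYC) and 3 with an antibody against RNA polymerase II (POL2), labelled as biological replicates. All knockout libraries carry the same line name, and the labels do not say whether it is a single clone. No summit list was used here from the 6 IgG or 2 Input samples. A summit list cannot show whether the SLK product was lost.

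List lengths on chromosomes 1 to 22 and X differed strongly. The WT MYC lists held 192 to 352 summits and the SLK-KO MYC lists 976 to 1413, while the WT POL2 lists held 5015 to 17078 and the SLK-KO POL2 lists 15389 to 18962. Sequencing depth is unknown, so each comparison was repeated with lists of equal length, the 192 best-scored MYC or 5015 best-scored POL2 summits of every library.

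Only 5 MYC sites on the 4 chromosomes had a summit in all 6 MYC libraries, and all 5 lay within 1 kb of a coding transcription start site (TSS). A site is a chain of summits 250 bp or less apart. Of these, 4 are described here. They lay at PAICS, an enzyme of purine synthesis, and TMA16, a gene of the translation machinery, on 4q, and at NPM1, a nucleolar chaperone of ribosome assembly, and LARP1, a binder of ribosomal protein messenger RNAs, on 5q. At 3 of the 5 the E-box CACGTG, which reads the same on both strands, lay within 100 bp of the site. At LARP1 the nearest one was 124 bp away. On the other chromosomes 43 of 75 sites in all 6 libraries held it within 100 bp. The 3 sequences are shown because they hold the E-boxes under MYC summits present in every list, long or short. They are GRCh38 plus-strand sequence, 5′ to 3′, with the E-box nearest the site in capitals, from chr4:56436379-56436408, chr4:163494684-163494713 and chr5:171388573-171388602.
PAICS: tgagctcgcggcCACGTGcgagccgcgaaa
TMA16: cttctcaggcgcCACGTGggattcggcccg
NPM1: gcacgtggttgcCACGTGgttgggggaggg
The site windows at PAICS and NPM1 each held 2 E-boxes, and the second one at NPM1 can be read near the start of the line.

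The ranks of these sites by score differed in direction between the genotypes. NPM1 ranked 15, 58 and 35 in the WT lists and 10, 8 and 7 in the SLK-KO lists. PAICS ranked 22, 44 and 62 in WT and 25, 42 and 23 in SLK-KO. TMA16 ranked 80, 92 and 145 in WT and 177, 417 and 323 in SLK-KO, where the lists were longer. LARP1 ranked 146, 65 and 128 in WT and 33, 57 and 55 in SLK-KO. The ranks of NPM1 and LARP1 on 5q were better in all SLK-KO than in all WT libraries, those of PAICS overlapped, and those of TMA16 were worse. Because the lists differ in length, ranks of single sites place a site within its list and show no change in binding.

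For POL2 the SLK-KO libraries had more of their summits on all 4 chromosomes. These held 13.1%, 11.5% and 12.9% of WT POL2 summits and 15.4%, 15.5% and 15.3% of SLK-KO summits. By chromosome the log2 ratio of mean shares was 0.51 on chromosome 16, 0.38 on 15, 0.20 on 5 and 0.19 on 4. Ranges of the 3 libraries per genotype that did not overlap are called apart. The 4 chromosomes were among the 7 of 23 (30.4%) that were apart and higher in SLK-KO. The others were chromosome 13 at 0.36, X at 0.20 and 6 at 0.10.

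The long arm of chromosome 16 carried the largest log2 ratio of the 41 arms. Of the POL2 summits, 16q held 1.35%, 0.857% and 1.07% in WT (230, 43 and 106 summits) and 2.02%, 1.97% and 1.96% in SLK-KO (383, 303 and 319 summits). The groups did not overlap, and the means were 1.09% ± 0.245 and 1.98% ± 0.031 (SD, n = 3 each), a log2 ratio of 0.86. The Wilson 95% interval of the highest WT share was 1.18% to 1.53% and that of the lowest SLK-KO share 1.76% to 2.19%; both cover counting error only.

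The short arm of the same chromosome did not follow. On 16p the shares were 1.51%, 0.837% and 1.37% in WT and 1.39%, 1.31% and 1.31% in SLK-KO. The SLK-KO values fell inside the WT range, and WT replicate 2, the shortest list, was the low one on both arms. Within a library the ratio of 16q to 16p summits was 0.891, 1.02 and 0.785 in WT and 1.45, 1.51 and 1.50 in SLK-KO, without overlap.

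Chromosome 15 has coding genes only on its long arm, and 15q was the second highest of the 41 arms. It held 2.62%, 2.57% and 2.63% of the summits in WT and 3.36%, 3.48% and 3.36% in SLK-KO. The SD of the WT libraries was 0.031 points although their lists differed in length, and the groups were apart with a log2 ratio of 0.38.

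On chromosome 5 only the long arm stood apart. It held 3.53%, 3.79% and 3.88% of the summits in WT and 4.37%, 4.54% and 4.42% in SLK-KO, apart, with a log2 ratio of 0.25. The 5p shares were 0.949%, 1.02% and 0.981% in WT and 0.986%, 0.955% and 0.979% in SLK-KO, which overlapped. The ratio of 5q to 5p summits was 3.72, 3.73 and 3.96 in WT and 4.43, 4.76 and 4.52 in SLK-KO.

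Chromosome 4 differed least. The 4q shares were 2.31%, 1.85% and 2.23% in WT and 2.43%, 2.42% and 2.31% in SLK-KO, and the highest WT and lowest SLK-KO values were nearly equal. Without WT replicate 2 the 4q difference was 0.113 points in place of 0.251. The 4p shares were 0.878%, 0.598% and 0.708% in WT and 0.897%, 0.793% and 0.923% in SLK-KO, with overlapping ranges. Their log2 ratio of 0.26 was nevertheless above those of 5q and 4q, and between same-numbered libraries 4p was higher in SLK-KO in 3 of 3 pairs, by 0.0182, 0.195 and 0.215 points. The same held in 3 of 3 pairs for 4q, 5q, 15q and 16q, and in 1 of 3 pairs for 5p and 16p. Whether the numbers mark paired libraries is not settled. Without WT replicate 1 the 4p difference was 0.218 points and without SLK-KO replicate 2 it was 0.182 points, and in each case the ranges were apart. The ratio of 4q to 4p summits overlapped between the genotypes in the full lists.

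Thus 4 of the 7 arms were apart and higher in SLK-KO, against 17.1% of the 41 arms, and 0 of the 7 were lower, against 17.1%. Because the chromosomes were chosen on this contrast, nothing is read from that count. Of the arms apart and lower, all on other chromosomes, 2p had the lowest log2 ratio, -0.34, followed by 2q with -0.30.

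**Figure D1:**
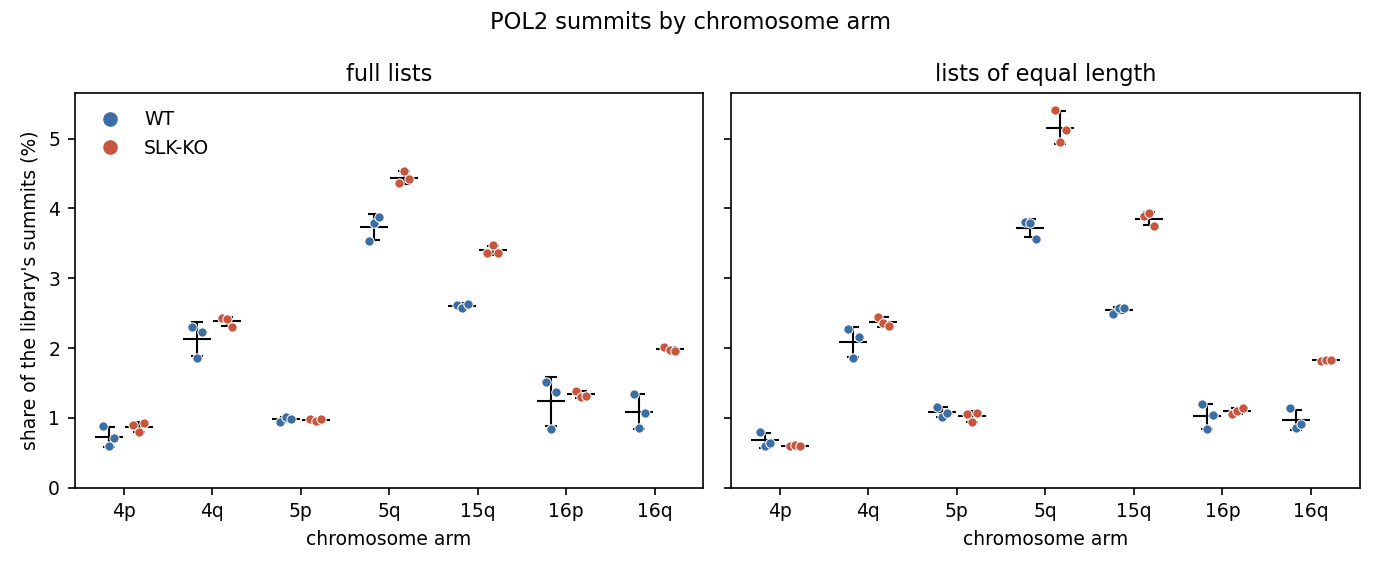
Share of each library's POL2 summits (%) by chromosome arm, in the full lists and in lists of equal length; points are libraries, long ticks means and bars SD (n = 3 per genotype). The SLK-KO points lie above all WT points on 4q, 5q, 15q and 16q in both panels and within or across the WT points on 5p and 16p.

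Equal list length widened the differences on 5q and 15q and left that on 16q about the same. Among the 5015 best-scored summits, 16q held 1.14%, 0.857% and 0.917% in WT and 1.81%, 1.83% and 1.83% in SLK-KO (log2 ratio 0.91). The 15q shares were 2.49%, 2.57% and 2.57% in WT and 3.89%, 3.93% and 3.75% in SLK-KO (0.60). The 5q shares were 3.81%, 3.79% and 3.57% in WT and 5.40%, 4.95% and 5.12% in SLK-KO (0.47). On all 3 arms the groups were apart.

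With 4q the count was again 4 of the 7 arms, against 22% of all 41 in these lists. On 4p the sign turned, with a log2 ratio of -0.16 and overlapping ranges. The 4q to 4p ratio became 2.85, 3.10 and 3.38 in WT and 4.10, 3.81 and 3.87 in SLK-KO, and these were apart, unlike in the full lists.

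The shift on 16q was spread over the whole arm. All 5 of its 10 Mb windows with a mean of at least 5 summits were apart and higher in SLK-KO, with log2 ratios from 0.64 to 1.46. The window from 60 to 70 Mb added most, with 61, 11 and 29 summits in WT and 115, 103 and 101 in SLK-KO (log2 ratio 1.13). Without that window the log2 ratio of 16q was 0.75. On 16p, 0 of 4 windows were apart in the full lists.

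On 15q, 6 of 9 windows were apart and higher and 1 was lower. The window from 80 to 90 Mb had 31, 4 and 13 summits in WT and 72, 58 and 55 in SLK-KO (log2 ratio 1.48), and that from 90 to 100 Mb had 41, 4 and 17 in WT and 69, 51 and 52 in SLK-KO (1.05). Of the 9 windows of the arm, 7 had a higher mean in SLK-KO and 2 had a lower one. The window from 30 to 40 Mb was lower in SLK-KO (log2 ratio -0.46, or -0.26 without WT replicate 2). The last window, from 100 Mb to the end, had 15, 28 and 18 summits in WT and 24, 21 and 23 in SLK-KO, and WT replicate 2 set its value: the log2 ratio was -1.03 with that library and near 0 without it, at mean shares of 0.135% in both genotypes. Without WT replicate 1 this window was apart and lower (-1.46).

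The long arm of chromosome 5 had 6 of 14 windows apart and higher, the largest from 70 to 80 Mb with 54, 12 and 27 summits in WT and 88, 71 and 77 in SLK-KO (log2 ratio 0.76). Its first window, from 50 to 60 Mb, was lower (-0.27), as was the adjoining 5p window from 40 to 50 Mb (-0.45, or -0.28 without WT replicate 2). On 4q, 3 of 13 windows were apart and higher, led by 160 to 170 Mb at 0.98, and the window from 90 to 100 Mb was lower at -0.26, or -0.14 without WT replicate 3. None of the 5 windows of 4p was apart, although all 5 had a higher mean in SLK-KO, with log2 ratios of 0.06 to 0.43.

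Over the 4 chromosomes 20 of 54 windows were apart and higher in SLK-KO, beside 18.3% of the 295 windows of all chromosomes, and 4 of 54 were lower, beside 13.6%. With lists of equal length 20 of 46 were higher, beside 16.9%. In those lists the mean was higher in SLK-KO in 14 of 14 windows of 5q, 7 of which were apart, in 7 of 8 windows of 15q, 6 of which were apart, and in 4 of 4 windows of 16q, all of which were apart. Windows apart and higher were 2 of 10 on 4q, 1 of 4 on 16p, 0 of 2 on 4p and 0 of 4 on 5p. On 5p 1 of the 4 was apart and lower. The 15q window from 30 to 40 Mb was no longer lower at equal length, with 13, 17 and 17 summits in WT and 16, 15 and 17 in SLK-KO.

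**Figure D2:**
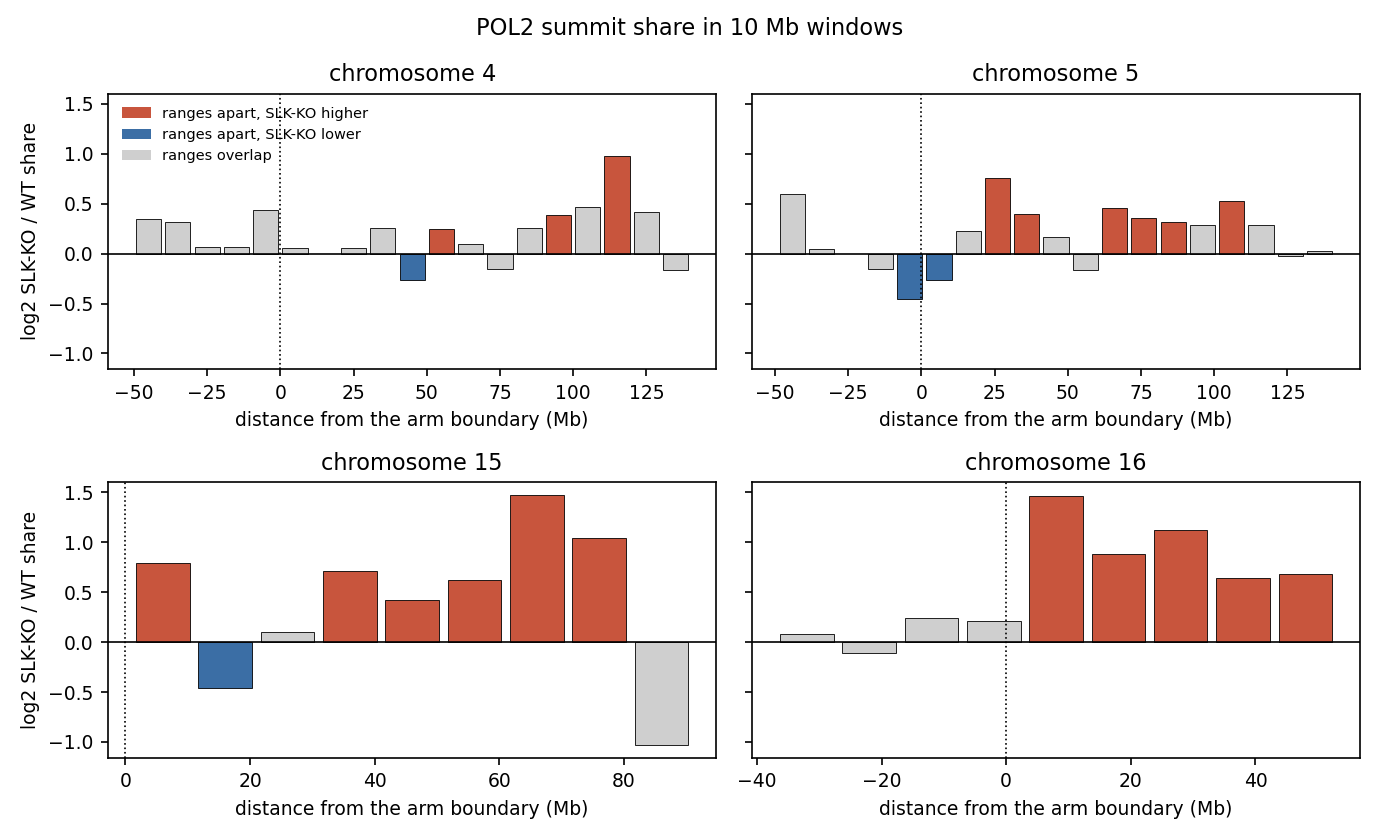
Log2 ratio of mean SLK-KO to mean WT share of POL2 summits in 10 Mb windows with a mean of at least 5 summits, by distance from the boundary of the chromosome arms (Mb). Coloured bars are windows whose ranges do not overlap; all 5 windows of 16q and none of 16p are red.

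Promoter and other summits did not shift alike in the full lists. A promoter summit lies within 1 kb of a TSS of a coding gene, and each class was counted as a share of the library's summits of that class. Among promoter summits 16q held 1.73%, 0.836% and 1.30% in WT and 2.13%, 2.03% and 2.05% in SLK-KO (log2 ratio 0.69). Among the other summits it held 0.913%, 0.904% and 0.631% in WT and 1.91%, 1.89% and 1.85% in SLK-KO (1.21), and in each class this log2 ratio was the highest of the 41 arms.

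On 5q the difference lay outside promoters in the full lists. The promoter shares were 3.77%, 3.98% and 4.03% in WT and 4.07%, 4.22% and 4.22% in SLK-KO, apart by a small step (log2 ratio 0.09). The other summits held 3.26%, 3.36% and 3.604% in WT and 4.67%, 4.96% and 4.68% in SLK-KO (0.48). On 15q the log2 ratio was 0.32 for promoter and 0.44 for other summits, both apart. On 4p it was 0.39 for promoter and 0.15 for other summits, both overlapping.

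In the full lists 4 of the 7 arms were apart and higher for promoter summits, beside 22% of 41, and 3 of the 7 for other summits, beside 14.6%. The split on 5q depended on the list length: among the best-scored 5015 summits the log2 ratio for promoter summits was 0.45, close to the 0.49 of the other summits. On 15q it was 0.65 and 0.53, and on 16q 0.91 and 0.93, so the split on 16q narrowed too.

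Sites found in every POL2 library are present whatever the list length. The 3011 POL2 sites with a summit in all 6 libraries were ranked by score within each library, and the median rank percentile of an arm's sites was taken, 0 being the best. On 16q (29 sites) it was 58.5, 56.5 and 60.8 in WT and 42.3, 39.6 and 34.7 in SLK-KO. On 5q it was 59.7, 57.3 and 57.9 in WT and 39.3, 38.0 and 39.9 in SLK-KO. On 15q (67 sites) it was 60.5, 65.2 and 52.0 in WT and 45.9, 41.9 and 45.7 in SLK-KO.

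These 3 arms had the largest shifts to better ranks of the 39 arms with at least 20 such sites, at -19.7, -19.2 and -14.7 percentile points. By single sites, 26 of 29 on 16q, 78.0% on 5q and 51 of 67 on 15q had a better mean rank in SLK-KO, as did 33 of 60 on 4q, 16 of 31 on 5p and 15 of 28 on 16p, beside 48.7% of the 3011 sites on all chromosomes. On 16p (28 sites, 2.96 points), 5p (31 sites, 2.21 points) and 4q (60 sites, -2.76 points) the ranges overlapped. Of the 6 arms with enough sites 3 were apart and better in SLK-KO, beside 20.5% of 39, and 0 were worse, beside 23.1%. Ranks and shares come from the same contrast, so the ranks are a description and not separate evidence.

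**Figure D3:**
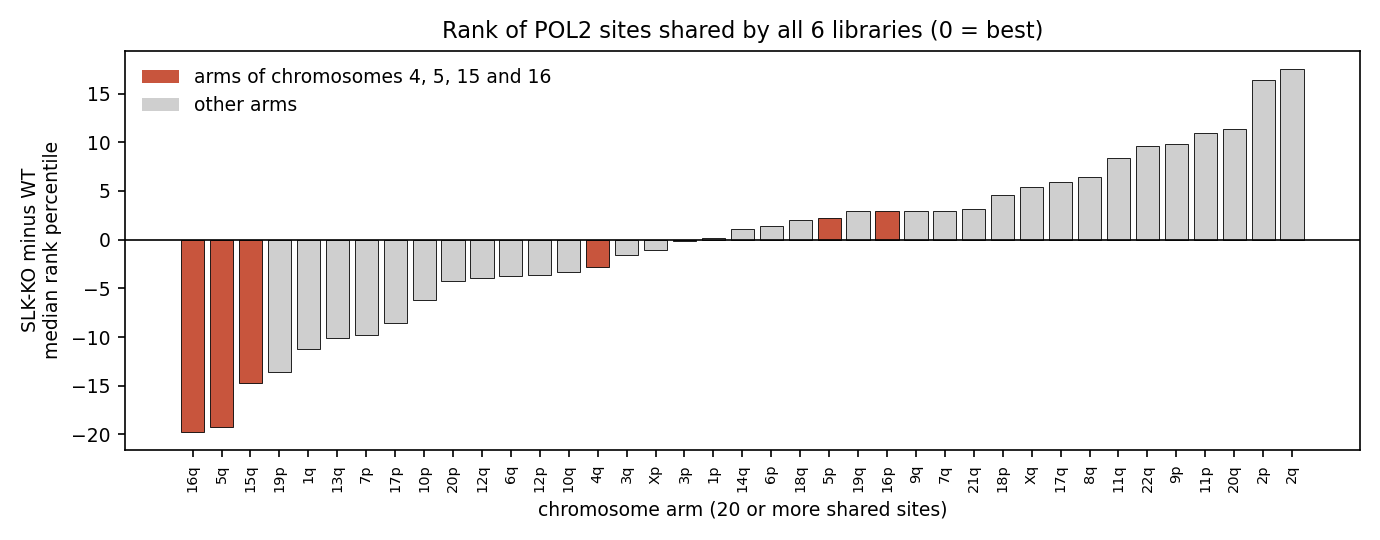
Difference of the mean of 3 library medians, SLK-KO minus WT, in rank percentile of POL2 sites shared by all 6 libraries, for the 39 arms with at least 20 such sites; negative values are better ranks in SLK-KO. The arms 16q, 5q and 15q lie at the left end, while 4q, 5p and 16p lie near 0.

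The best-ranked shared POL2 sites are described next. On 15q they lay beside RNU5B-1 and RNU5A-1, genes for the U5 small nuclear RNA of the spliceosome, with ranks of 16, 24 and 16 in WT and 7, 10 and 14 in SLK-KO at RNU5B-1. The nearest coding TSS, that of PARP16, was 17911 bp away. On 5q the best site lay at NPM1, 8 bp from its TSS, with ranks of 91, 77 and 79 in WT and 36, 46 and 50 in SLK-KO. Next came ARRDC3, an arrestin-domain regulator of receptor trafficking, with ranks of 99, 174 and 137 in WT and 42, 45 and 46 in SLK-KO.

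The ranks at both 5q genes were better in every SLK-KO than in every WT library. Those at the leading 4q sites overlapped. H2AZ1, a histone variant gene on 4q, ranked 402, 358 and 362 in WT and 414, 392 and 419 in SLK-KO. AFF1, a scaffold of the super elongation complex, also on 4q, had a median rank of 433.

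Sites present in one genotype only were counted next. Of 4950 POL2 sites on the 4 chromosomes, 223 had a summit in all 3 SLK-KO and no WT library (4.51%), beside 2.98% of 34426 sites on all chromosomes. The reverse held for 2 of 4950 sites, beside 0.107%. By arm the first share was 5.77% on 16q (35 of 607), 5.41% on 15q (59 of 1090), 4.82% on 5q (69 of 1432), 4.27% on 5p, 3.66% on 4q, 2.93% on 4p and 2.20% on 16p (10 of 454).

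Among the sites in SLK-KO libraries alone, the best-ranked per arm included several promoters. On 16q the leading one lay at NFAT5, a transcription factor of the osmotic stress response (chromosome 16, 69565727 to 69565777, in an untranslated exon), with ranks of 3122, 2993 and 5973. Its nearest WT summit was 267 bp away, just beyond the 250 bp that joins summits. On 15q, IREB2, an iron-regulatory protein gene, had a site 12 bp from its TSS with ranks of 3246, 4891 and 3397, and its nearest WT summit lay 102149 bp away. On 5q the site at MCC, a gene named for mutation in colorectal cancer, lay in a coding exon 46 bp from a TSS, with the nearest WT summit 25285 bp away.

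The 4p site at EVC, a ciliary Hedgehog signalling gene, lay 13 bp from the TSS and 336575 bp from a WT summit, and the second 4q site, at RNF150, a RING finger protein gene, 2 bp from the TSS and 87824 bp from a WT summit. The best-ranked 4q site, at the deubiquitinase gene OTUD4, was 413 bp from a WT summit. On 5p the leading site was intergenic, 516569 bp from the TSS of the ciliary dynein gene DNAH5. On 16p the sites by ARHGAP17 and by RHBDF1, an inactive rhomboid protease, had median ranks of 8596 and 9268. On 16q the median ranks were 3122 at NFAT5 and 5021 at the second site, by the non-coding gene LINC01572. These were the best of 10 such sites on 16p and of 35 on 16q, so the arms are not compared by them. The nearest WT summits were 787 bp away at ARHGAP17 and 14656 bp away at RHBDF1. For the other sites named by rank they were 2181 bp away at NSD2 on 4p, 16156 bp at TPPP on 5p, 649 bp at C5orf46 on 5q and 13523 bp at SNX33 on 15q, so some of these sites lie close to WT summits. The 2 sites in WT libraries alone lay at RBPJ, the transcription factor of Notch signalling, on 4p, and by ZNF131, a zinc finger protein gene, on 5p, with SLK-KO summits 416 bp and 2343 bp away.

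Some windows drew many of their POL2 summits from single gene bodies. CDH11, ANPEP, ALDH1A3 and THBS1 were singled out after their values were seen. CDH11, a cadherin of cell adhesion (chromosome 16, 64943753 to 65126112), lies in the 60 to 70 Mb window of 16q. Over 1 kb from a coding TSS it held 3, 0 and 0 POL2 summits in WT and 24, 28 and 16 in SLK-KO. ANPEP, aminopeptidase N (chromosome 15, 89784895 to 89815401), lies at the end of the 80 to 90 Mb window of 15q and held 0, 0 and 0 in WT and 11, 11 and 10 in SLK-KO. On the 4 chromosomes 9 coding genes had a mean of at least 5 such summits over the 6 libraries. CDH11 and ANPEP were the 2 with shares apart and higher in SLK-KO, and 0 were lower. Both met that minimum mostly or only through SLK-KO libraries, so the minimum largely set that they were apart. The share over all chromosomes was not computed, so nothing is read from this count.

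The values ran the other way, with overlap, in ALDH1A3, a retinaldehyde dehydrogenase at the end of 15q (chromosome 15, 100877714 to 100916626), with 0, 20 and 9 summits in WT and 2, 0 and 0 in SLK-KO. WT replicate 1, the longest WT list, had 0 there, so the groups overlapped. The best-ranked POL2 summit inside ALDH1A3 had ranks of 313, 207 and 316 in WT and 280, 214 and 178 in SLK-KO, which overlapped too. THBS1, encoding the matrix protein thrombospondin-1, in the 30 to 40 Mb window, held 12, 2 and 4 in WT and 2, 7 and 6 in SLK-KO. SH3TC2 on 5q held 5, 3 and 2 in WT and 10, 10 and 9 in SLK-KO, but its shares overlapped. Several summits in a gene can come from a single broad stretch of signal, so they are not separate sites.

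Leaving out the summits inside CDH11, ANPEP and ALDH1A3, which was added after the data were seen, the 15q difference was 0.887 points beside 0.790 with them, and the 16q difference 0.767 points beside 0.892. CDH11 also had a promoter POL2 summit in all 6 libraries.

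**Figure D4:**
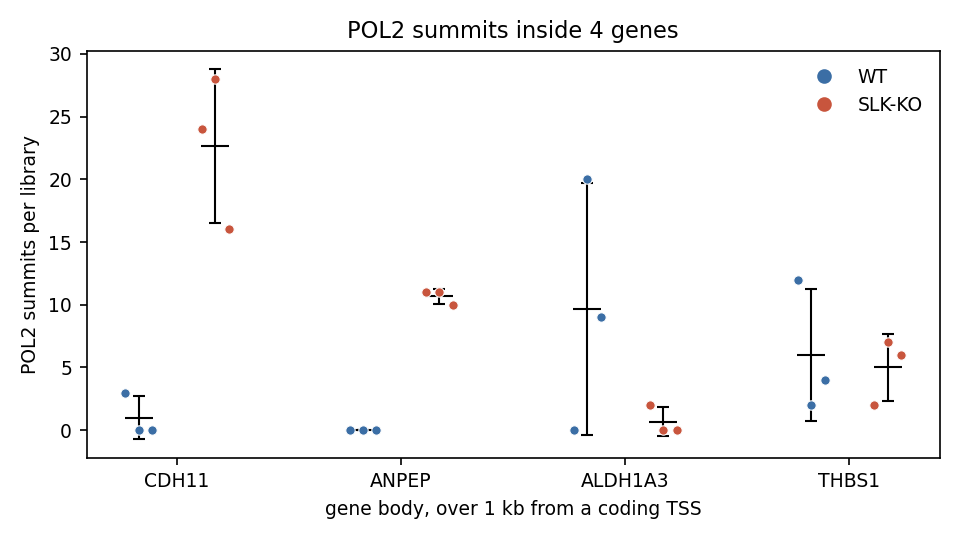
POL2 summits per library over 1 kb from a coding TSS inside 4 genes; points are libraries, long ticks means and bars SD (n = 3 per genotype). CDH11 and ANPEP have 10 to 28 summits in every SLK-KO library and at most 3 in WT, while ALDH1A3 is high in 2 of 3 WT libraries.

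For MYC the full lists pointed the same way, on far fewer summits. The 4 chromosomes held 28, 16 and 19 MYC summits in WT (7.95%, 8.33% and 7.28%) and 182, 190 and 136 in SLK-KO (15.02%, 13.4% and 13.9%). Chromosomes 4, 5, 15 and 16 were among the 6 of 23 (26.1%) apart and higher in SLK-KO, the others being 22 and X. On 16q the counts were 1, 0 and 0 in WT and 22, 28 and 17 in SLK-KO. A count of 0 among 192 and 261 summits allows a share of up to 1.56% and 1.15% by the limit of 3 counts, and up to 1.96% and 1.45% by the upper end of the Wilson 95% interval. The SLK-KO shares were 1.74% to 1.98%, so the first Wilson limit reaches into them.

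On 15q the MYC lists had 3, 3 and 4 summits in WT (0.852%, 1.56% and 1.53%) and 41, 47 and 35 in SLK-KO (3.38%, 3.33% and 3.59%), apart. On 5q they had 13, 8 and 8 in WT (3.69%, 4.17% and 3.07%) and 75, 69 and 50 in SLK-KO (6.19%, 4.88% and 5.12%), also apart. The shares overlapped on 4q, 5p and 16p. The 4p counts of 0, 0 and 0 in WT and 3, 3 and 3 in SLK-KO were too few to be compared. Of the 6 arms with a mean of at least 5 summits 3 were apart and higher, beside 20% of 35.

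Some of these MYC calls turned on a single library. Without WT replicate 1 or without SLK-KO replicate 1, 4q was apart and higher, by 0.393 and 0.327 points. Without SLK-KO replicate 2, 16p was apart and higher by 0.383 points, and without SLK-KO replicate 1, 5p was apart and lower by -0.239 points.

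None of these arms was apart at equal list length. Among the best-scored 192 summits, 16q held 0, 0 and 0 in WT and 3, 3 and 0 in SLK-KO, 15q held 1, 3 and 2 in WT and 2, 4 and 7 in SLK-KO, and 5q held 5, 8 and 5 in WT and 8, 14 and 8 in SLK-KO. Only 5q reached a mean of at least 5 summits, and it overlapped, so 0 of 1 arm was apart and higher, beside 0% of 15 arms on all chromosomes. On chromosome 4 the sign turned, from 0.540 to -0.347 points. No arm had more than 14 summits in any of these lists.

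**Figure D5:**
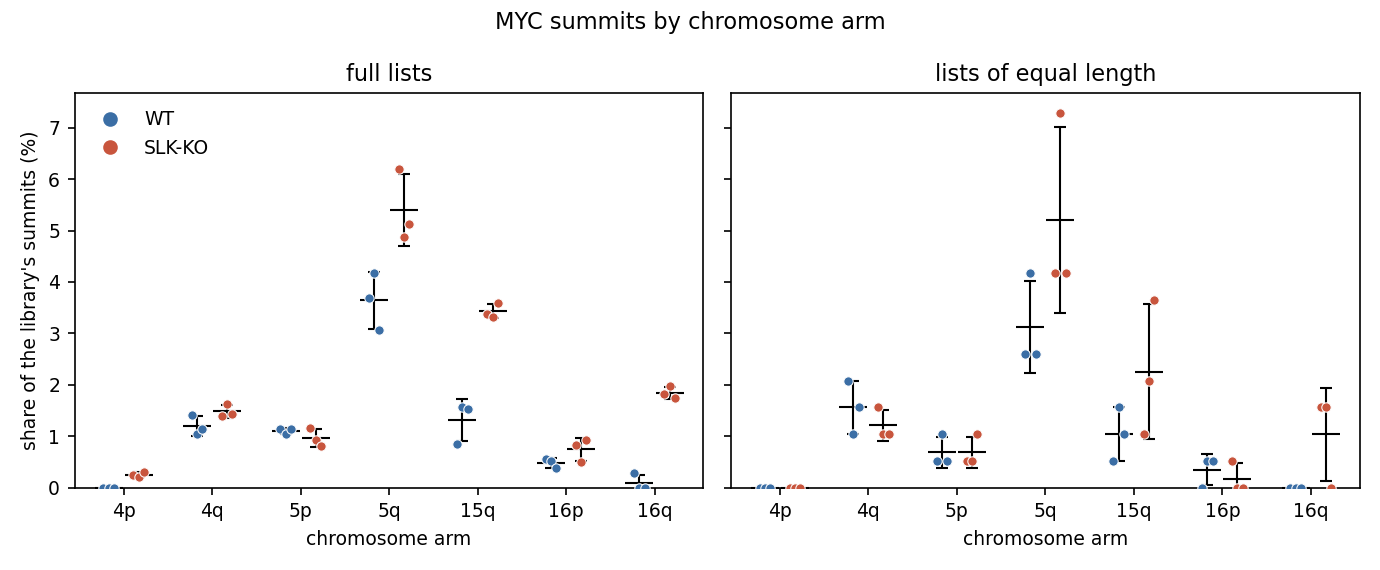
Share of each library's MYC summits (%) by chromosome arm, in the full lists and in lists of equal length; points are libraries, long ticks means and bars SD (n = 3 per genotype). On 5q, 15q and 16q the SLK-KO points lie above the WT points in the full lists and overlap or touch them at equal length.

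Windows could hardly be compared for MYC, since only 3 on these chromosomes had a mean of at least 5 summits, and 0 of them were apart and higher, beside 2.22% of 45 windows on all chromosomes, and 0 apart and lower, beside 24.4%. The richest, 5q from 170 to 180 Mb, which holds NPM1, had 2, 3 and 4 summits in WT and 14, 18 and 10 in SLK-KO. Of 315 MYC sites on the 4 chromosomes, 36 were in all 3 SLK-KO and no WT library, beside 7% of 2328 on all chromosomes. They were 7 of 39 on 16q, 17 of 115 on 5q and 7 of 80 on 15q. The other arms had 2 of 32 on 4q, 1 of 24 on 5p, 1 of 20 on 16p and 1 of 5 on 4p. The reverse held for 0 of 2328 sites on all chromosomes. The SLK-KO MYC lists were longer, and the part of list length in these site counts was not tested.

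E-boxes and promoters were not used in choosing the chromosomes, and the antibodies were compared on them over libraries. The p-values were adjusted by the Benjamini-Hochberg method over all 9 tests computed, which include 4 of chromosome shares. On the 4 chromosomes 34.0% ± 11.03 of MYC summits and 3.32% ± 0.249 of POL2 summits had CACGTG within 100 bp (SD, n = 6 libraries each), a difference of 30.7 points, higher in 6 of 6 MYC libraries (two-sided exact permutation p = 0.005, adjusted 0.0112, the smallest that 400 relabellings within genotypes allow). By library the MYC share was 42.9%, 50.0% and 36.8% in WT and 26.9%, 23.7% and 23.5% in SLK-KO, so the shorter WT lists were richer in E-boxes.

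MYC summits lay at promoters more often. The promoter share on the 4 chromosomes was 82.5% ± 4.98 for MYC and 61.9% ± 7.74 for POL2 (SD, n = 6), a difference of 20.6 points in 6 of 6 libraries (exact permutation p = 0.005, adjusted 0.0112).

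The chromosome shares of the 2 antibodies are a description without a test, since these shares chose the chromosomes. Chromosome 4 held 1.47% ± 0.326 of MYC and 3.06% ± 0.322 of POL2 summits, and chromosome 16 held 1.59% ± 1.11 and 2.83% ± 0.660 (SD, n = 6 libraries each). Chromosome 15 held 2.37% of MYC and 3.00% of POL2 summits, and chromosome 5 held 5.56% and 5.07%. Replicates were labelled biological, yet nothing says which came from separate cultures, so the p-values measure only the spread between libraries, which may be technical.

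Set against the other chromosomes of the same library, the summits on chromosomes 4, 5, 15 and 16 showed no difference that passed the adjusted threshold. The POL2 promoter share was 61.9% on the 4 chromosomes and 58.0% on the others, 3.87 points more and higher in 6 of 6 libraries (exact permutation p = 0.0312, adjusted 0.0563), which missed the threshold after adjustment although it is the smallest p that 64 sign flips allow. At equal list length the difference was 0.552 points. For MYC the promoter share differed by 1.83 points (exact permutation p = 0.344, adjusted 0.344) and was higher in 5 of 6 libraries. The MYC E-box share was 34.0% on the 4 chromosomes and 37.2% on the others (exact permutation p = 0.25, adjusted 0.281), with 2 of 6 libraries higher.

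The arms differed from each other in gene content. By GENCODE, 16p carries 12.8 coding genes per Mb, 15q 7.24, 16q 7.16, 5q 5.49, 4p 4.68, 4q 3.73 and 5p 3.16. The arms with the largest POL2 log2 ratios in the full lists, 16q and 15q, came below 16p and above 5q, 4p, 4q and 5p. Whether gene content bears on the shifts was not tested. By POL2 library the promoter share on the 4 chromosomes was 59.1%, 69.4% and 73.3% in WT and 52.95%, 58.0% and 58.7% in SLK-KO, the WT values being higher. The means were 67.3% and 56.5%. On the other chromosomes the mean was also higher in WT, 62.2% beside 53.8% in SLK-KO, with overlapping ranges. Across the 6 POL2 libraries 70.4% ± 5.12 of 16p summits and 49.8% ± 10.1 of 5p summits lay at promoters (SD, n = 6).

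Gene clusters on these chromosomes were taken from lists of textbook knowledge and counted by promoter summits. Of 12 CXC chemokine genes on 4q, which draw neutrophils and lymphocytes, 5, 3 and 4 had a POL2 promoter summit in WT and 6, 5 and 5 in SLK-KO. CXCL1, CXCL2 and CXCL3 had one in all 6 libraries, and CXCL8, the neutrophil attractant interleukin 8, had one in all SLK-KO libraries and a single WT library. In the cytokine region of 5q, 1, 1 and 1 of 7 genes had one in WT and 4, 3 and 3 in SLK-KO. IRF1, an interferon-response transcription factor, had one in all 6, while IL5, a growth factor of eosinophils, and its neighbour RAD50, a DNA break repair gene, had one in every SLK-KO and no WT library. They were 2 of the 4 genes of this region with a POL2 promoter summit in any library, beside 2.85% of 10416 coding genes on all chromosomes. These 5q genes lie side by side, so they are not separate observations.

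The other clusters gave closer counts. Of 11 metallothionein genes on 16q, which bind zinc and copper, 2, 2 and 1 had a POL2 promoter summit in WT and 3, 2 and 2 in SLK-KO, with MT2A in all 6 libraries. Of 7 genes in the imprinted region of 15q the numbers were 3, 3 and 3 and 3, 4 and 3, with SNRPN, SNURF and UBE3A in all 6. Of 8 cadherin genes on 16q they were 2, 1 and 1 in WT and 1, 1 and 1 in SLK-KO. The 53 clustered protocadherin genes of 5q, which mark neurons, and the 5 globin genes of 16p had at most 2 and 1 in any library.

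Ribosomal protein genes, known MYC targets, were the only list with MYC promoter summits. Of 15 such genes on the 4 chromosomes, 2, 0 and 1 had a MYC promoter summit in WT and 6, 6 and 5 in SLK-KO. RPL13 on 16q, RPL37 on 5p and RPLP1 on 15q had one in every SLK-KO and no WT library, 3 of the 6 genes with one in any library, beside 9.05% of 1835 coding genes on all chromosomes. RPS23 on 5q had one in 2 of 3 WT and all SLK-KO libraries. For POL2 the numbers were 11, 10 and 11 in WT and 11, 11 and 11 in SLK-KO, close to equal in both genotypes. The SLK-KO MYC lists were longer, and the part of list length in these MYC counts was not tested.

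Each gene was also counted once, whatever its number of summits. Of the coding genes with a POL2 promoter summit, 16q held 1.81%, 0.948% and 1.39% in WT and 2.09%, 1.97% and 1.99% in SLK-KO (log2 ratio 0.54), the groups being apart. The 15q shares were 2.99%, 2.30% and 2.88% in WT and 3.32%, 3.41% and 3.32% in SLK-KO (log2 ratio 0.30), and those of 5q 3.81%, 3.76% and 4.06% in WT and 4.08%, 4.19% and 4.13% in SLK-KO (log2 ratio 0.09). On 4q the log2 ratio was 0.21, also apart. On 4p and 16p it was 0.30 on each, as high as on 15q, with overlapping ranges, and on 5p it was -0.08. Thus 4 of 7 arms were apart and higher, beside 22% of 41.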

How the data were processed

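The data were 12 ChIP-seq summit lists, 3 each for MYC and POL2 in either genotype. Reads were paired-end of 50 bp, per the labels. The submitters' processing notes name nf-core/chipseq 2.1.0, BWA 0.7.18-r1243, MACS3 3.0.1 and GRCh38.p14. The caller's options and control are not given in the sources used here. Each deposited list gives 1-bp summits and a score, read as −log10 of the caller's q-value because the lowest score in any list, 1.302, lies just above −log10 of 0.05. Within a list, the authors' scores served to rank summits or to set a minimum. Reads per library, and so depth, are unknown.

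Summits were counted by chromosome, arm and 10 Mb window as a share of the library's summits on chromosomes 1 to 22 and X; 323 summits on other sequences were left out. Arm boundaries were rounded to 1 Mb. Arms and windows with a mean of at least 5 summits were compared, and were called apart where the ranges of 3 and 3 libraries did not overlap. Promoter summits lay within 1 kb of a TSS of a coding transcript in GENCODE 44. The members, gene lists, tests and alternatives were chosen with earlier results of these data known. Named were all arms and, per chromosome, up to 4 MYC and 2 POL2 sites in all 6 libraries by median rank, and, per arm, up to 2 POL2 sites in 3 libraries of one genotype and 0 of the other. Some sites that this rule names are not reported here. Tests were exact permutations over libraries. Alternatives covered list length, score, denominator, window size, promoter and E-box width, leaving out each library and a block for the replicate number; counts were tested on simulated data.

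Deviations of window shares in same-numbered WT and SLK-KO POL2 libraries had correlations of 0.260, 0.279 and 0.123. WT replicate 1 and SLK-KO replicate 3 had 0.119, and the other unlike-numbered POL2 libraries had negative values. For MYC the same-numbered values were 0.0371, 0.0181 and 0.121. Whether the numbers mark paired libraries is therefore not settled. No test compares the genotypes, and pairing leaves their mean difference as it is. Values are mean ± SD. Sequences were read with samtools 1.23.1 and pysam 0.24.0, statistics used scipy 1.17.1, pandas 2.3.3 and numpy 2.4.6 under Python 3.11.15, and plots matplotlib 3.10.9.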

Additional observations from a re-analysis of the deposited data

How the results depend on the processing

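Over the values that answer a comparison and the alternatives that could change them, 187 results stayed as reported, 16 moved, 6 reversed, 3 newly passed and 4 newly missed the threshold. These counts include alternatives of the 4 chromosome-share tests, from which no result is read. They also include the SLK-KO minus WT shares and window counts, the contrast on which the chromosomes were chosen. Such a share counted as unchanged where it moved by less than the pooled SD of the libraries. The counts are therefore no support for that contrast. For MYC, the SLK-KO minus WT share was 0.540 points on chromosome 4 and reversed to -0.347 at equal list length, -0.119 at a score of at least 5 and -0.785 at 10. At a score of at least 10 it was 2.96 on chromosome 5, 2.49 on 15 and 1.24 on 16, and at equal length 1.22 on 15 and 0.868 on 16 (as reported 1.61, 2.12 and 2.01). For POL2, chromosome 5 moved from 0.699 to 1.38 at equal length and 1.37 at a score of 10, and chromosome 15 from 0.790 to 1.31 and 1.35, and to 0.887 without summits inside CDH11, ANPEP and ALDH1A3 (added after seeing the data). Higher POL2 windows were 20 of 54 as reported and 35 of 98 with 5 Mb windows, nearly the same fraction. Lower ones were 4 of 54 as reported and 1 with 20 Mb windows. At equal length 1 of 46 was lower, beside 18.1% of 260 windows of all chromosomes. Higher MYC windows went from 0 to 2 with 20 Mb windows and 12 at a mean of at least 1 summit, where 2 were lower. For the 5 Mb and 20 Mb windows and the mean of at least 1 summit, shares over all chromosomes were not computed. Nothing is read from those counts. The MYC promoter difference from other chromosomes reversed to -1.62 with a 500 bp promoter and the E-box difference to 2.68 at equal length. MYC minus POL2 on chromosome 5 reversed to -0.632 and on 15 was -1.55, both at equal length. With a replicate block for same-numbered MYC and POL2 libraries, the E-box and promoter differences of 30.7 and 20.6 points kept their size. Their exact permutation p rose to 0.0312 (adjusted 0.0563), the smallest 64 flips allow. The MYC minus POL2 shares of -1.58 points on chromosome 4 and -1.24 points on chromosome 16 kept their size too. No test is read from them, since these shares chose the chromosomes. The same-numbered MYC and POL2 libraries share only a number (correlations -0.0380 to 0.142). Leaving out 1 library gave MYC minus POL2 of 0.246 to 0.631 on chromosome 5 and -0.692 to -0.514 on 15. The POL2 difference on chromosome 4 was 0.190 without WT replicate 2. The cause of these changes was not tested. The shortest MYC list held 192 summits, which limits every MYC comparison at equal length.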

Other observations

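Most MYC summits on the long arms that stood apart lay at promoters, as did most on the other chromosomes. In SLK-KO the mean promoter share was 79.8% on 15q, 75.6% on 16q and 77.6% on 5q, beside 76.5% on the other chromosomes. WT had only 10, 1 and 29 MYC summits on these arms. On 15q the promoter class held 2, 2 and 2 MYC summits in WT and 29, 39 and 30 in SLK-KO. On 16q it held 1, 0 and 0 in WT and 15, 23 and 13 in SLK-KO. As shares of all promoter MYC summits the groups were apart on both arms, while on 5q, with 3.70%, 4.88% and 3.62% in WT and 6.43%, 5.08% and 4.88% in SLK-KO, they touched. The share of all arms apart in this class was not computed, so nothing is read from these calls. Among the other MYC summits the mean 15q share was 3.46% in WT and 2.97% in SLK-KO, with overlap. Those of 16q and 5q were higher in SLK-KO, on few summits.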
